A study of Mus musculus with 11 samples.

Results

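KATP channels are potassium channels that open when cellular ATP falls and so tie the electrical state of a membrane to metabolism. Each channel joins a pore of Kir6 subunits to a ring of sulfonylurea receptors (SUR), and 4 genes encode the parts: Kcnj8 (Kir6.1) and Kcnj11 (Kir6.2) for the pore, Abcc9 (SUR2) and Abcc8 (SUR1) for the receptors. In ventricular muscle of the mouse the channel is mainly Kir6.2 with the SUR2A form of SUR2. Pericytes and vascular smooth muscle cells, the mural cells of vessels, use Kir6.1 with SUR2B, where opening relaxes the vessel. SUR1 is the receptor of pancreatic beta cells and, in the mouse, of atrial muscle. These 4 genes were chosen by name from the 22608 genes with estimated counts in the hearts of 11 mice, and all 4 were among the 11319 genes that passed the filter on low counts.

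The hearts came from male mice on a C57BL/6J background, 8 to 16 weeks old. CD (complete deletion) mice carry a heterozygous deletion from Gtf2i to Fkbp6 on chromosome 5, which models Williams-Beuren syndrome, and WT mice were their littermates. JZL184, an inhibitor of monoacylglycerol lipase (MAGL, the enzyme that degrades the endocannabinoid 2-arachidonoylglycerol), or vehicle (VEH) was injected intraperitoneally for 10 days, JZL184 at 8 mg/kg. There were 2 WT VEH mice and 3 mice in each of WT JZL184, CD VEH and CD JZL184, with 1 heart, labelled as ventricle, per sample. The treatment label calls the vehicle mice untreated, while their titles name the vehicle. The deletion is present in every cell and the inhibitor was given systemically, so no cell type was targeted. The mice of a group are named here by the letter of their column in the table.

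Total counts per mouse lay between 69660329 and 92251550. At this depth a floor of 3 counts stood at 0.0325 to 0.0431 CPM, a count relative to its library, here of the unscaled totals (all other CPM values are TMM-scaled), whereas the fewest counts of any subunit gene in any mouse were 1602, for Abcc8. The genotype labels were checked on the 14 tested genes of the deleted interval. All 14 were lower in CD VEH than in WT VEH (median log2 fold-change -1.01). The same 14 were lower in CD JZL184 than in WT JZL184 (median -0.91). The treatment labels were not checked on any gene, so every difference by treatment rests on them as given. The share of counts from genes of the mitochondrial genome was 39.4 to 41.2% in WT VEH and 36.4 to 40.1% in CD JZL184, against 43.5 to 44.7% in CD VEH and 45.0 to 46.6% in WT JZL184. This share moved with the subunits described below, and its part in their differences was not tested. The ventricle label was checked on Myl2, the ventricular myosin light chain, which stood at 5852 to 8344 CPM, and on 10 atrial markers. Of these, 4 were under 1 CPM in every mouse, among them Myl7, the atrial light chain (at most 0.520 CPM), while Stard10 stood at 10.03 to 13.4 CPM and Nppa at 49.1 to 220 CPM.

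The 4 genes form a pair of loci, each holding a pore gene next to its receptor gene, with all 4 on the minus strand (GRCm38, GENCODE release 21). Kcnj8 lies at chr6:142564837-142571614 and Abcc9 at chr6:142587862-142702315. Kcnj11 lies at chr7:46093953-46100764 and Abcc8 at chr7:46104523-46180033. All are protein-coding and outside the deleted interval on chromosome 5. The pore genes were identical at 73.2% of 1163 aligned coding bases and the receptor genes at 70.2% of 4615. No word of 31 bases was shared between the annotated transcripts of any of the 6 pairs of genes. Identical sequence that could move reads from 1 subunit to another was thus limited to shorter runs. Longer stretches with mismatches were not searched for. The longest identical coding runs of the pore genes and of the receptor genes are shown:
Kcnj8 coding bases 649 to 669 and Kcnj11 coding bases 619 to 639: AAGAGCATGATCATTAGCGCC
Abcc9 coding bases 547 to 569 and Abcc8 coding bases 553 to 575: GTGGAGATCAATGTCATCCGGGT
Antisense genes are annotated across Abcc9 (5330439B14Rik) and Abcc8 (Gm45486), and whether the counting used strand is not given in the sources used here.

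SUR2A and SUR2B are splice forms of Abcc9 that differ in the last coding exon, so the split between the muscle and the vessel form is invisible in a count per gene. The 2 alternative exons, both of 135 coding bases, are shown with the bases that differ between them in capitals, read on the minus strand of GRCm38:
Abcc9 last coding exon, chr6:142590369-142590503: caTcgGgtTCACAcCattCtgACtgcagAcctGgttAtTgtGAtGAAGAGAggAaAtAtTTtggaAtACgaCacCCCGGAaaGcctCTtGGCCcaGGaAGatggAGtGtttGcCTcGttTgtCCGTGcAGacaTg
Abcc9 last coding exon, chr6:142594008-142594142: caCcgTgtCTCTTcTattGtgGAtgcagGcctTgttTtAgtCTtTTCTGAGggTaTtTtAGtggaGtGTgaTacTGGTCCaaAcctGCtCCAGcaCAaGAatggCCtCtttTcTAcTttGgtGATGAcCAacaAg
They were identical at 51.1% of positions. The exon at chr6:142590369-142590503 (in 1 long transcript) was 69.6% identical to the last coding exon of Abcc8, and the exon at chr6:142594008-142594142 (in 4 transcripts) was 51.9% identical to it, which fits the SUR2B type for the former and the SUR2A type for the latter, since the SUR2B tail is known to resemble that of SUR1. All Abcc9 values below sum both forms.

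The subunits were present at unequal levels. Divided by the length of the longest transcript, which removes the effect of gene length on counts, the mean over the 11 mice was 33.2 CPM per kb for Abcc9 (range 24.3 to 40.9), 30.7 for Kcnj11 (24.95 to 37.8), 15.0 for Kcnj8 (10.8 to 20.1) and 5.49 for Abcc8 (4.61 to 6.37). The ranges of Abcc9 and Kcnj11 overlapped, and neither overlapped that of Kcnj8 or Abcc8. The longest transcript was used because the median length over protein-coding transcripts of Kcnj11 (705.5 bases) and Abcc8 (630 bases) is that of partial models, whereas their longest transcripts hold 3142 and 4877 bases. With the median length Kcnj11 would read 137 and Abcc8 42.5 CPM per kb, so the order of the genes depends on this choice. Differences between groups for a gene do not depend on the length it is divided by.

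Kcnj8, the pore of the vessel channel, was the subunit that was higher in CD VEH than in WT VEH. In WT VEH it stood at 28.4 and 27.6 CPM. In CD VEH it stood at 49.7, 41.4 and 42.1 CPM. All 3 CD VEH hearts were above both WT VEH hearts, and Kcnj8 was upregulated in CD VEH (edgeR adjusted p = 0.00307, log2 fold-change 0.67, SE 0.11, 95% interval 0.44 to 0.90). It stood at 31.2, 32.2 and 33.2 CPM in CD JZL184, and JZL184 in CD mice downregulated it (edgeR adjusted p = 0.00459, log2 fold-change -0.46, SE 0.09), with no overlap between CD JZL184 and CD VEH. In WT JZL184 it stood at 39.9, 51.2 and 44.0 CPM. There the same drug raised it over WT VEH (edgeR adjusted p = 0.00242, log2 fold-change 0.69, SE 0.11). The WT JZL184 and CD VEH hearts overlapped.

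**Figure D1:**
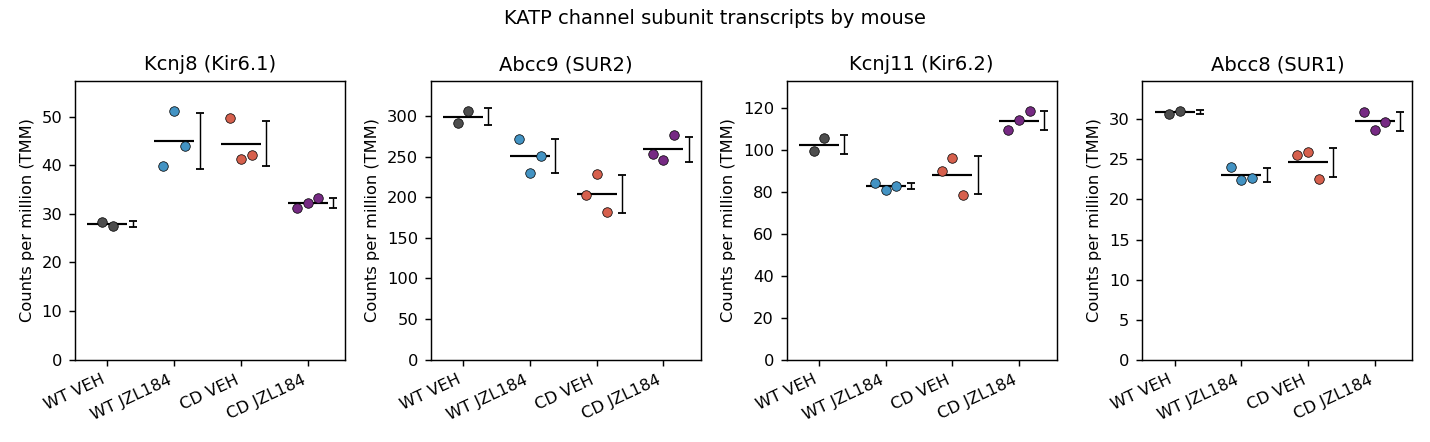
CPM (TMM) of each KATP subunit gene, 1 panel per gene, with 1 point per mouse in WT VEH (n = 2) and the 3 other groups (n = 3 each); lines are group means and error bars are SD. Kcnj8 was lowest in WT VEH and CD JZL184 and highest in WT JZL184 and CD VEH, while Kcnj11 and Abcc8 were highest in WT VEH and CD JZL184.

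Abcc9, the shared receptor of ventricular muscle and vessels, was lower in CD VEH, where Kcnj8 was higher. In WT VEH it stood at 292 and 306 CPM. In CD VEH it stood at 203, 229 and 182 CPM, below both WT VEH hearts, and it was downregulated (edgeR adjusted p = 0.00457, log2 fold-change -0.55, SE 0.10, 95% interval -0.77 to -0.33). In CD JZL184 it stood at 254, 246 and 277 CPM, above every CD VEH heart and below both WT VEH hearts, and it was upregulated over CD VEH (edgeR adjusted p = 0.016, log2 fold-change 0.34, SE 0.09). That call was lost with an offset for gene length (log2 fold-change 0.19, edgeR adjusted p = 0.109), and without CD JZL184 mouse E (adjusted p = 0.0691), CD VEH mouse A (0.0507) or CD VEH mouse E (0.0656). In WT JZL184 it stood at 271, 229 and 251 CPM. All 3 were below WT VEH, but the difference did not pass the test (edgeR adjusted p = 0.0773, log2 fold-change -0.25, SE 0.10). It passed without WT JZL184 mouse A (edgeR adjusted p = 0.0343) and with DESeq2 (adjusted p = 0.0485).

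Kcnj11, the pore of the ventricular muscle channel, stood at 99.5 and 106 CPM in WT VEH. In CD VEH it stood at 89.8, 96.2 and 78.4 CPM, all below WT VEH, and the difference did not pass the test (edgeR adjusted p = 0.0589, log2 fold-change -0.22, SE 0.08, 95% interval -0.40 to -0.04). It passed without CD VEH mouse C (edgeR adjusted p = 0.0184), WT JZL184 mouse A (0.048) or WT JZL184 mouse B (0.0473), and with DESeq2 (0.0335) or an offset for gene length (0.0175) or for GC content (0.0235). In CD JZL184 it stood at 109, 114 and 119 CPM, the highest 3 hearts of the 11, and it was upregulated over CD VEH (edgeR adjusted p = 0.00445, log2 fold-change 0.37, SE 0.07). In WT JZL184 it stood at 84.2, 81.1 and 83.03 CPM and was downregulated against WT VEH (edgeR adjusted p = 0.0163, log2 fold-change -0.31, SE 0.08). That call was lost without WT VEH mouse C (edgeR adjusted p = 0.0676) or D (0.119), and with only the groups compared in the model (0.0529).

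Abcc8, the receptor of beta cells and atrial muscle, had the lowest level of the 4 per kb of the longest transcript. In CPM, not divided by length, it stood at 30.7 and 31.1 CPM in WT VEH and at 25.5, 25.9 and 22.6 CPM in CD VEH, where it was downregulated (edgeR adjusted p = 0.0082, log2 fold-change -0.33, SE 0.07). The call was lost without WT VEH mouse C (edgeR adjusted p = 0.0631) or D (0.0544), each of which leaves 1 mouse in that group. In CD JZL184 it stood at 30.97, 28.7 and 29.6 CPM, overlapping WT VEH and above every CD VEH heart (edgeR adjusted p = 0.00904, log2 fold-change 0.27, SE 0.06). In WT JZL184 it stood at 24.1, 22.5 and 22.7 CPM and was downregulated against WT VEH (edgeR adjusted p = 0.0034, log2 fold-change -0.42, SE 0.07). The summed CPM of 10 atrial markers was 189 to 212 in WT VEH, 70.4 to 168 in CD VEH, 94.9 to 144 in CD JZL184 and 134 to 245 in WT JZL184. Most of this sum was the natriuretic peptide gene Nppa, and of 4 tested atrial markers 0 passed the test in any of these 3 comparisons.

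These counts stand against a wide background. Of all tested genes, 30.4% were differentially expressed genes (DEGs, edgeR adjusted p under 0.05) in CD VEH against WT VEH, where 3 of the 4 subunits passed. The share was 33.9% in CD JZL184 against CD VEH, where 4 of 4 passed, and 29.4% in WT JZL184 against WT VEH, where 3 of 4 passed. By direction, 15% of tested genes were higher and 15.4% lower in CD VEH, 16.8% and 17% for JZL184 in CD mice, and 15.4% and 14% for JZL184 in WT mice. The number of DEGs in CD VEH against WT VEH was 3438, and it was 386 without WT VEH mouse C, 1217 without WT VEH mouse D, 1931 without CD VEH mouse A and 1980 without CD VEH mouse E. In WT JZL184 against WT VEH it was 3330, and 558 or 1032 without WT VEH mouse C or D and 2091 without WT JZL184 mouse B. In CD JZL184 against CD VEH it was 3832, and 2095 or 2037 without CD VEH mouse A or E and 2448 or 2142 without CD JZL184 mouse A or E. Comparisons that share a group are given side by side and are not independent. CD VEH enters the first pair of them, and WT VEH enters the first and the last. The share of all tested genes without overlap between groups was not counted in any comparison. Each non-overlap given here is thus a description and not a test.

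**Figure D2:**
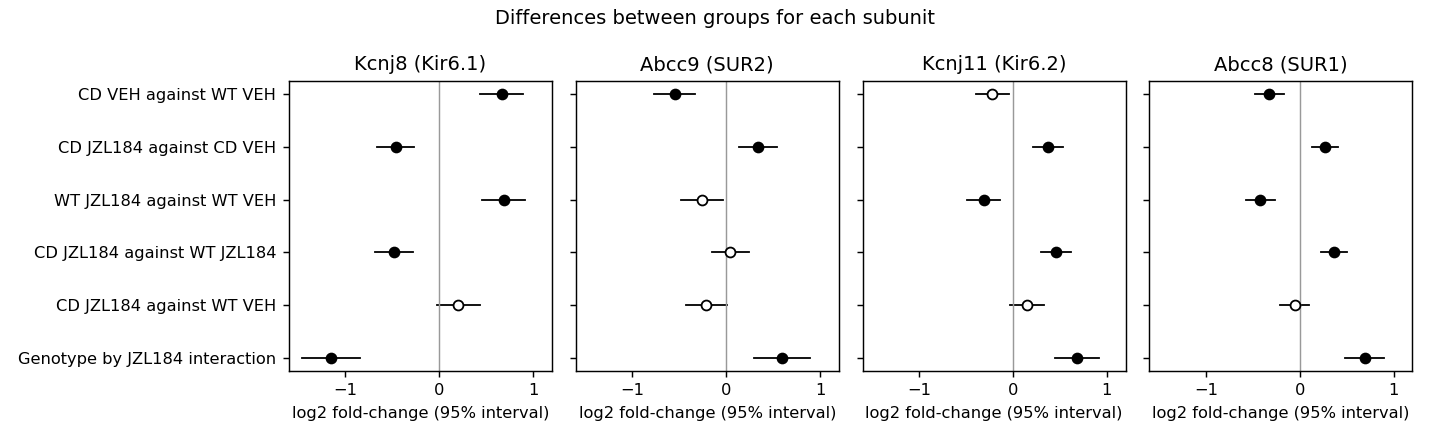
log2 fold-change (x axis) of each subunit in 5 comparisons between groups and in the interaction (y axis), from edgeR; bars are 95% intervals, filled points passed an adjusted p of 0.05 and open points did not. Kcnj8 lies on the opposite side of 0 from Kcnj11 in each comparison other than CD JZL184 against WT VEH.

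The genotypes were also compared under JZL184, where Kcnj8 and Abcc8 differed in the reverse direction from vehicle. In CD JZL184 against WT JZL184, 38.3% of tested genes were DEGs and 3 of 4 subunits passed: Kcnj8 was lower (log2 fold-change -0.48, edgeR adjusted p = 0.0026), and Kcnj11 (0.46, adjusted p = 0.00123) and Abcc8 (0.36, adjusted p = 0.00186) were higher. The groups did not overlap for these 3 genes. Abcc9 overlapped between the groups and its log2 fold-change of 0.05 had a 95% interval of -0.15 to 0.25 (edgeR adjusted p = 0.71).

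Few genes passed between CD JZL184 and WT VEH hearts. Only 0.186% of tested genes (21 genes by edgeR, with 1059 at an unadjusted p under 0.05) were DEGs in that comparison, and 0 of 4 subunits passed. The 21 became 12 or 14 without WT VEH mouse C or D, 13 without CD JZL184 mouse E and 33 or 32 without WT JZL184 mouse A or B, and 88 with only the groups compared or 104 with DESeq2. The log2 fold-change was 0.20 for Kcnj8 (95% interval -0.02 to 0.43), -0.21 for Abcc9 (-0.43 to 0.01), 0.15 for Kcnj11 (-0.03 to 0.33) and -0.05 for Abcc8 (-0.21 to 0.10). Every CD JZL184 heart was above both WT VEH hearts for Kcnj8 and Kcnj11 and below both for Abcc9, so the intervals leave room for residual differences of that size. DESeq2 also called 0 of the 4.

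By the labels as given, the effect of JZL184 differed between genotypes for each subunit. The treatment labels were not checked. In the interaction, the effect of JZL184 in CD mice minus its effect in WT mice, 51.5% of tested genes passed and 4 of 4 subunits passed. The difference on the log2 scale was -1.15 for Kcnj8 (95% interval -1.46 to -0.85, edgeR adjusted p = 0.000173), 0.59 for Abcc9 (0.30 to 0.89, adjusted p = 0.00385), 0.68 for Kcnj11 (0.44 to 0.92, adjusted p = 0.000512) and 0.69 for Abcc8 (0.48 to 0.90, adjusted p = 0.000273). Kcnj8 alone of the 4 had a negative sign.

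The balance of the pore genes differed between the groups. The size of this share depends on the lengths used, and the differences of log2 ratios do not. With the longest transcript as length, WT VEH hearts had 25.2 ± 1.21% (SD, n = 2) of the summed Kcnj8 and Kcnj11 level from Kcnj8. This share was 38.4 ± 3.22% in CD VEH, 40.1 ± 3.47% in WT JZL184 and 25.8 ± 0.183% in CD JZL184 (each SD, n = 3). The WT VEH hearts lay at 24.3 and 26.0%, the CD JZL184 hearts between 25.7 and 26.0%, and the hearts of the other groups between 34.7 and 43.8%. The log2 ratio of Kcnj8 to Kcnj11 was higher by 0.89 in CD VEH than in WT VEH and changed by -0.84 in CD JZL184 from CD VEH. It was higher by 0.99 in WT JZL184 than in WT VEH. Each of these 3 differences had an exact two-sided permutation p = 0.1, the smallest that 3 against 3 or 2 against 3 mice allow, and an adjusted p of 0.16 over 24 tests. The interaction of the ratio was -1.83 (exact permutation over 92400 assignments of the mice, p = 0.000866, adjusted p = 0.0104). These assignments move mice between all 4 groups. The interaction p-values of the ratios thus test for any difference between groups, not for an interaction alone.

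The receptor balance moved far less. In WT VEH, 86.3 ± 0.309% (SD, n = 2) of the summed Abcc9 and Abcc8 level came from Abcc9. The share was 84.3 ± 0.744% in CD VEH, 87.6 ± 0.573% in WT JZL184 and 84.95 ± 0.842% in CD JZL184 (each SD, n = 3). The interaction of the log2 ratio of Abcc9 to Abcc8 was -0.09 and did not pass (exact permutation p = 0.688, adjusted p = 0.718). The genotypes differed by -0.23 under vehicle (exact permutation p = 0.2, adjusted p = 0.267) and by -0.32 under JZL184 (CD minus WT, exact permutation p = 0.1, adjusted p = 0.16), the latter without overlap (2.41 to 2.60 in CD JZL184 and 2.73 to 2.87 in WT JZL184).

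Kcnj8 and Abcc9, which share a locus and a vessel role, changed in opposite directions in CD VEH and for JZL184 in CD mice. The log2 ratio of Kcnj8 to Abcc9, neighbours on chromosome 6, was -1.86 ± 0.08 in WT VEH (SD, n = 2), and -0.64 ± 0.23 in CD VEH, -0.92 ± 0.30 in WT JZL184 and -1.45 ± 0.06 in CD JZL184 (each SD, n = 3). Its interaction was -1.74 (exact permutation p = 0.000649, adjusted p = 0.0104). The ratio of Kcnj11 to Abcc9, the partners of ventricular muscle, had an interaction of 0.08 (exact permutation p = 0.76, adjusted p = 0.76). A difference between genotypes widens the permuted spread, so this p cannot decide on an interaction. In that ratio the genotypes stood apart: -0.29 ± 0.01 in WT VEH (SD, n = 2) and -0.34 ± 0.09 in WT JZL184, against 0.04 ± 0.04 in CD VEH and 0.07 ± 0.06 in CD JZL184 (each SD, n = 3). The genotypes did not overlap within either treatment (exact permutation p = 0.1 for each, adjusted p = 0.16). With single mice left out, which leaves fewer assignments, the interaction of Kcnj8 over Kcnj11 had an adjusted p over 0.05 (0.0571 to 0.0705) without CD JZL184 A, C or E, CD VEH A or E, WT JZL184 B or WT VEH D. That of Kcnj8 over Abcc9 had an adjusted p of 0.0571 without CD JZL184 A, C or E or WT JZL184 B.

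**Figure D3:**
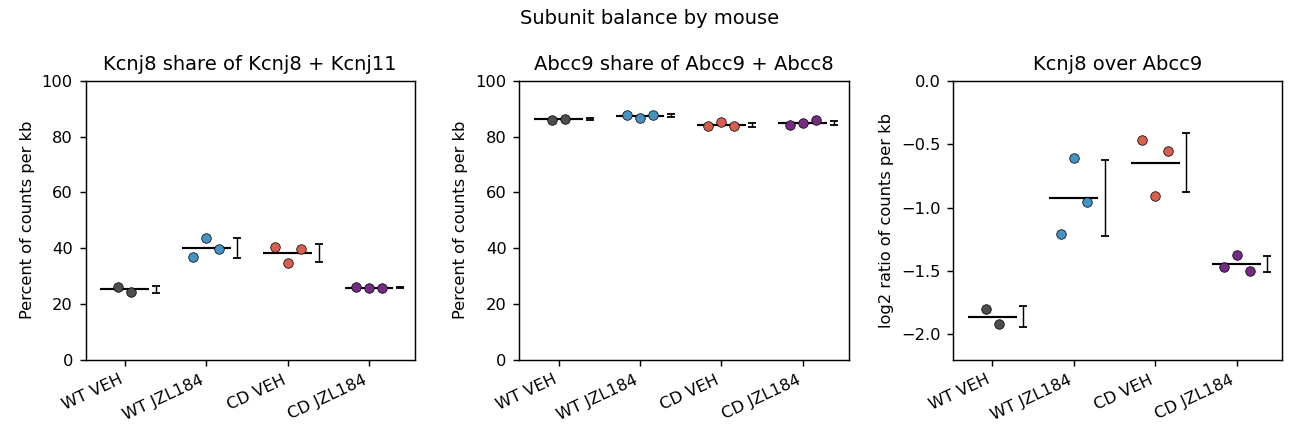
Subunit balance by mouse, from counts per kb of the longest transcript: Kcnj8 as percent of Kcnj8 plus Kcnj11 (left), Abcc9 as percent of Abcc9 plus Abcc8 (middle), and the log2 ratio of Kcnj8 to Abcc9 (right), with group means (lines) and SD (error bars). The share of Kcnj8 lay between 24.3 and 26.0% in WT VEH and CD JZL184 and between 34.7 and 43.8% in the other groups, while Abcc9 stayed between 83.8 and 88.0%.

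The sequence before the start of the chromosome 6 genes is shown because the neighbours Kcnj8 and Abcc9 moved in opposite directions. It comes from RefSeq (GRCm38.p6), on the minus strand. The set of sequences used here held no entry for Kcnj11 or Abcc8, which says nothing about their annotation in RefSeq. Capitals mark matches to CACCC or GGGCGG on either strand:
Kcnj8, chr6:142571615-142571864: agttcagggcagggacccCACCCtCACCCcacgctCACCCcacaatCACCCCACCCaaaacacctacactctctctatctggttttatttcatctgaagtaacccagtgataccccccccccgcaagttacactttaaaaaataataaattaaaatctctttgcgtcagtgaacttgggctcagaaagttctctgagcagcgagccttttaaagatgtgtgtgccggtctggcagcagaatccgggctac
Abcc9, chr6:142702316-142702524: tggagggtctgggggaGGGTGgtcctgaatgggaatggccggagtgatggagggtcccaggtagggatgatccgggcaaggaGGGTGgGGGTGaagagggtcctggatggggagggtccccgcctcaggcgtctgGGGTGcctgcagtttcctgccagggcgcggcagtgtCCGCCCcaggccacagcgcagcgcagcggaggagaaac
In the 250 bases before the RefSeq start, each gene held 5 matches to CACCC, and 0.667% of 32851 promoters of the same length held at least as many. For Abcc9 the last 41 of these bases, with 1 of the 5 matches, lie within the GENCODE gene and are not shown. GC content was 49.2% for Kcnj8 and 66.8% for Abcc9. GGGCGG had 1 match before Abcc9 and 0 before Kcnj8 (32.7% of promoters hold it). Neither stretch held TATAAA (12.4% of promoters), GATAA (22.6%), the MEF2 motif (2.92%) or the CArG box (1.47%). No marked match shared a base with another. A match is a description of letters, not of binding.

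The nearest tested genes were examined on each side of both loci. Around Kcnj8 and Abcc9, the neighbours Ldhb, Golt1b and Cmas did not pass in any of the 6 comparisons, with log2 fold-changes between -0.19 and 0.16. C2cd5, 309 kb beyond Abcc9, was downregulated in CD VEH (log2 fold-change -0.44, edgeR adjusted p = 0.00631) and upregulated by JZL184 in CD mice (0.39, adjusted p = 0.0051). Around Kcnj11 and Abcc8, Ush1c and Sergef did not pass in any comparison. Nomo1, 9.74 kb before Kcnj11, passed for JZL184 in CD mice (0.23, edgeR adjusted p = 0.0129), in CD JZL184 against WT JZL184 (0.34, adjusted p = 0.00182) and in the interaction (0.31, adjusted p = 0.0115), each in the direction of Kcnj11, and in none of the 3 other comparisons. Emp3, 173 kb before, was upregulated in CD VEH (0.66, edgeR adjusted p = 0.014) and downregulated by JZL184 in CD mice (-0.80, adjusted p = 0.00352), opposite to Kcnj11 and Abcc8.

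Genes with the most similar profile over the 11 mice were listed by Pearson r of log2 CPM across all tested genes, as a description without a test, since the mice share their groups. For Kcnj8 they were Ndufa4l2 (r = 0.986), a pericyte marker, then Cyb5r3, E2f5 and C1qtnf2. For Abcc9 they were Cnksr3 (0.978), Adcy5, Prdm2, Usp54 and Patj. For Kcnj11 they were Nfe2l1 (0.978), Hk1, Golga2, Grb14 and Add1. For Abcc8 they were Tnik (0.983), Nipsnap2, Esrrg, Fgf13 and Klf15. The next genes of each list had r of at least 0.981 for Kcnj8, 0.947 for Abcc9 and 0.971 for Kcnj11 and Abcc8. No gene was shared between the 4 lists.

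Markers of the cell types that use each channel were counted next to the subunits. In bulk tissue, fewer cells of a type and less RNA per cell cannot be told apart. Of all tested genes, 15% were higher in CD VEH and 17% lower for JZL184 in CD mice. For JZL184 in WT mice, 15.4% were higher. Of 12 tested pericyte markers, 8 were upregulated and 0 downregulated in CD VEH (median log2 fold-change 0.37, against 0.01 over all tested genes), 7 were downregulated and 0 upregulated by JZL184 in CD mice (median -0.36), and 11 were upregulated by JZL184 in WT mice (median 0.54). Examples in CD VEH are Rgs5, a regulator of G protein signalling (log2 fold-change 0.60, edgeR adjusted p = 0.00277), Vtn (0.53, adjusted p = 0.00288) and Ndufa4l2 (0.70, adjusted p = 0.00354). Their summed level was 646 to 665 CPM in WT VEH, 897 to 1038 in CD VEH, 931 to 1010 in WT JZL184 and 654 to 682 in CD JZL184. The count of upregulated pericyte markers in CD VEH was 3 and 4 without WT VEH mouse C and D and 4 without CD VEH mouse A, and in WT JZL184 it was 6 without WT VEH mouse C. Kcnj8 moved in the same direction as the summed pericyte markers, and the part of these markers in its change was not tested.

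Kcnj8 was also set against those markers on the log2 scale. Its log2 level minus the mean log2 level of the 12 pericyte markers was 0.59 and 0.60 in the WT VEH hearts, 0.78 to 0.95 in CD VEH, 0.62 to 0.87 in WT JZL184 and 0.69 to 0.78 in CD JZL184. On this measure CD VEH and WT VEH did not overlap, whereas CD VEH overlapped both WT JZL184 and CD JZL184. Both WT VEH hearts also lay below every WT JZL184 and CD JZL184 heart. Set against the 12 endothelial markers in the same way, Kcnj8 stood at -1.20 to -1.12 in WT VEH and -1.14 to -0.90 in CD VEH, which overlapped, and against the 9 vascular smooth muscle markers at 0.63 to 0.65 and 0.86 to 1.16, which did not. The smooth muscle list includes Smtn and Synpo2, which were downregulated in CD VEH (log2 fold-change -0.35 and -0.40), while 6 of the 9 were upregulated. This measure of Kcnj8 against markers was added with the data in view and was not tested.

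Endothelial markers, which line the same vessels, gave 10 upregulated and 0 downregulated of 12 in CD VEH (median log2 fold-change 0.47), with Egfl7 (0.77, edgeR adjusted p = 0.00162), Emcn (0.83, adjusted p = 0.00271) and Pecam1 (0.46, adjusted p = 0.00378). JZL184 downregulated 11 of 12 in CD mice (median -0.43) and upregulated 12 of 12 in WT mice (median 0.63). Of all tested genes, 15% were higher in CD VEH and 17% lower for JZL184 in CD mice. For JZL184 in WT mice, 15.4% were higher. These shares stand beside each list of this paragraph. Without WT VEH mouse C, 3 endothelial markers were upregulated in CD VEH. Vascular smooth muscle markers were less uniform. Of 9 tested, 6 were upregulated and 2 downregulated in CD VEH, with Myl9, a smooth muscle myosin light chain, upregulated (0.83, edgeR adjusted p = 0.0041) and Smtn downregulated (-0.35, adjusted p = 0.00995). JZL184 in CD mice downregulated 5 and upregulated 2, and JZL184 in WT mice upregulated 6 and downregulated 2. Their summed level, 319 to 337 CPM in WT VEH and 293 to 323 CPM in CD VEH, overlapped between these groups. More than any other markers, Smtn (mean 117 CPM in WT VEH) and Synpo2 (91.2 CPM) made up this sum, and they were the 2 downregulated in CD VEH. The 6 upregulated in CD VEH became 1 without WT VEH mouse C or D, 3 without CD VEH mouse A and 2 without CD VEH mouse C. Fibroblast markers gave 5 upregulated of 10 in CD VEH, 5 downregulated by JZL184 in CD mice and 6 upregulated by JZL184 in WT mice. In CD VEH the 5 became 1 without WT VEH mouse C or D and 2 without CD VEH mouse A or E, and in WT JZL184 the 6 became 3 without WT VEH mouse D.

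Cardiomyocyte markers were counted next to Kcnj11, Abcc8 and Abcc9. Of 12 tested, 5 were downregulated and 0 upregulated in CD VEH (median log2 fold-change -0.33), with Actn2 (-0.46, edgeR adjusted p = 0.0107), Ttn, the giant spring of the sarcomere (-1.07, adjusted p = 0.021) and Atp2a2, the calcium pump of the sarcoplasmic reticulum (-0.37, adjusted p = 0.0286). The list was not uniform: Tnni3, cardiac troponin I, and Myl2 had log2 fold-changes of 0.24 and 0.25, which did not pass (edgeR adjusted p = 0.0912 and 0.0984), with every CD VEH heart above both WT VEH hearts. Of all tested genes, 15.4% were lower in CD VEH and 16.8% higher for JZL184 in CD mice. For JZL184 in WT mice, 14% were lower. Of the cardiomyocyte markers, JZL184 in CD mice upregulated 5 and downregulated 1 (median 0.29), and JZL184 in WT mice downregulated 5 and upregulated 0 (median -0.33). Their summed level was 63759 to 64622 CPM in WT VEH, 52266 to 57309 in CD VEH, 45116 to 58653 in WT JZL184 and 61171 to 64217 in CD JZL184. The 5 downregulated in CD VEH became 0 or 1 without WT VEH mouse C or D, 1 or 2 without CD VEH mouse A or E, and 3 without CD JZL184 A, C or E. The 5 upregulated by JZL184 in CD mice became 2 without CD VEH mouse E and 3 without CD VEH A or CD JZL184 A or E, and the 5 downregulated in WT JZL184 became 0 without WT VEH mouse C or D and 3 without WT JZL184 mouse B. Relative to the mean log2 level of these markers, Kcnj11 stood at -5.33 in WT VEH, -5.28 in CD VEH, -5.30 in WT JZL184 and -5.14 in CD JZL184, and Abcc8 at -7.05, -7.10, -7.11 and -7.06. On this measure the ranges of CD VEH and WT VEH overlapped for Kcnj11 and for Abcc8, whereas Abcc9 was lower in CD VEH (mean -4.08) than in WT VEH (mean -3.80), without overlap. It stood at -4.03 to -3.89 in CD JZL184, which overlapped CD VEH and lay below every WT heart (-3.84 to -3.75 in WT VEH, -3.77 to -3.60 in WT JZL184). The part of the markers in these changes was not tested.

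**Figure D4:**
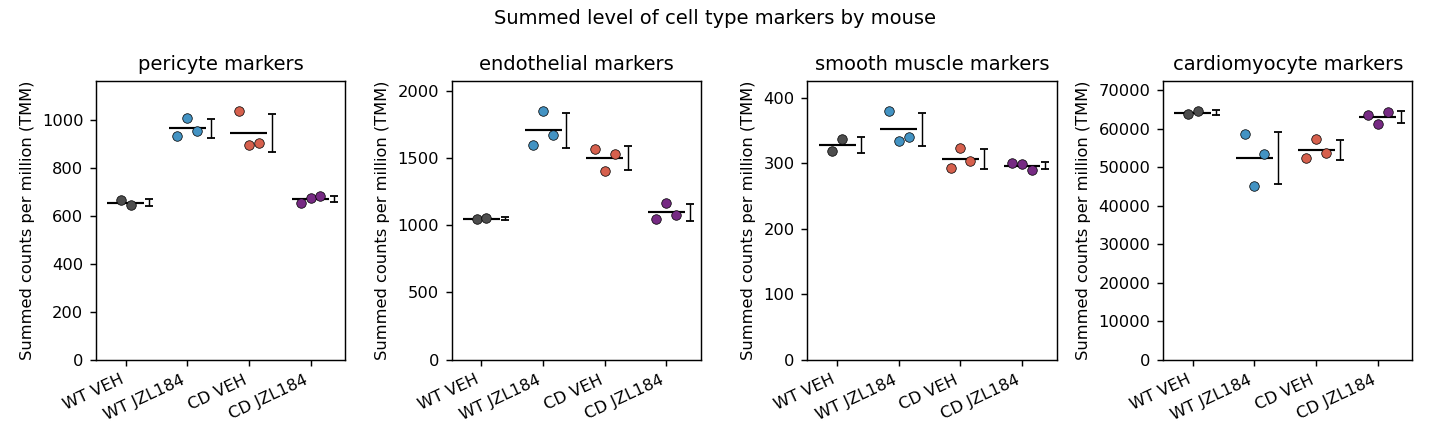
Summed CPM of the markers of 4 cell types by mouse, with group means (lines) and SD (error bars). Pericyte and endothelial sums were lowest in WT VEH and CD JZL184, and the cardiomyocyte sum was lowest in WT JZL184 and CD VEH.

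Signals that act on KATP channels of vessels were counted from lists of receptors and kinases. Vasodilators open the channel through adenylyl cyclase and protein kinase A or through guanylyl cyclase. Of 14 tested genes of these inputs, 7 were upregulated and 3 downregulated in CD VEH, with the guanylyl cyclase subunit Gucy1b1 (log2 fold-change 0.58, edgeR adjusted p = 0.0015), the adenosine receptor Adora2a (0.81, adjusted p = 0.00212) and the prostaglandin receptor Ptger4 (0.77, adjusted p = 0.00436) upregulated. The 3 downregulated genes all encode subunits of protein kinase A: Prkaca (-0.32, edgeR adjusted p = 0.0060), Prkacb (-0.19, adjusted p = 0.0364) and Prkar1a (-0.33, adjusted p = 0.0286). JZL184 in CD mice downregulated 6 and upregulated 1, these 3 among the 6 (Gucy1b1 -0.52, Adora2a -0.41, Ptger4 -0.51). In WT mice JZL184 upregulated 7 and downregulated 3. Of all tested genes, 30.4% passed in CD VEH, 33.9% for JZL184 in CD mice and 29.4% for JZL184 in WT mice. The 7 upregulated in CD VEH became 2, 3 and 4 without WT VEH C, WT VEH D and CD VEH E, the 6 downregulated by JZL184 in CD mice became 3 without CD VEH A, and the 7 upregulated in WT JZL184 became 4 without WT VEH C. Vasoconstrictors close the channel through Gq and protein kinase C. Of 11 tested genes, 1 was upregulated and 4 downregulated in CD VEH, among them the kinases Prkce (-0.39, edgeR adjusted p = 0.0128) and Prkca (-0.23, adjusted p = 0.0147) and the adrenergic receptor Adra1a (-0.71, adjusted p = 0.0199). JZL184 in CD mice upregulated 3 and downregulated 1, and JZL184 in WT mice upregulated 1 and downregulated 3. Both JZL184 counts lay near the 33.9 and 29.4% of all tested genes. The 4 downregulated in CD VEH became 0 and 1 without WT VEH mouse C and D.

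Partners at the membrane were counted as well. Of 11 tested genes for proteins that bind or inhibit the channel (glycolytic and phosphotransfer enzymes, caveolins and ankyrin), 1 was upregulated and 1 downregulated in each of the 3 comparisons, below the 30.4, 33.9 and 29.4% of all tested genes. In CD VEH these were Cav1, a caveolin of endothelial and mural membranes (log2 fold-change 0.66, edgeR adjusted p = 0.00212), and Ank2, ankyrin-B, which anchors Kir6.2 (-0.54, adjusted p = 0.00466). Stx1a, a syntaxin that binds SUR subunits, lies in the deleted interval and was below the filter at 0.600 to 1.83 CPM. In a fit without the filter it was lower in CD VEH than in WT VEH (log2 fold-change -0.92, edgeR adjusted p = 0.00426) and in CD JZL184 than in WT JZL184 (-1.27, adjusted p = 0.000191). Of 6 tested genes of PIP2 synthesis, the lipid that keeps Kir channels open, 1 was upregulated (Pip5k1c, 0.29, edgeR adjusted p = 0.0193) and 1 downregulated (Pi4ka, -0.35, adjusted p = 0.005) in CD VEH, a share near the 30.4% of all tested genes. The genes proposed for the mitochondrial KATP channel, Ccdc51 and Abcb8, did not pass in CD VEH (log2 fold-changes -0.04 and -0.19), and Abcb8 was upregulated by JZL184 in CD mice (0.21, edgeR adjusted p = 0.0316).

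Related channels and transporters were compared with the subunits. Of 6 tested subunits of voltage-gated calcium channels, which KATP currents restrain by shortening the action potential, 4 were downregulated and 0 upregulated in CD VEH, with Cacnb2 (log2 fold-change -0.65, edgeR adjusted p = 0.00288), Cacna2d1 (-0.49, adjusted p = 0.01) and the pore Cacna1c (-0.63, adjusted p = 0.0123). The shares of all tested genes called were 30.4% in CD VEH, 33.9% for JZL184 in CD mice and 29.4% for JZL184 in WT mice. Of the calcium channel genes, JZL184 in CD mice upregulated 4 and downregulated 1, and JZL184 in WT mice downregulated 3 and upregulated 1. Without WT VEH mouse C, 1 of them was downregulated in CD VEH. Of 4 tested other inward rectifiers, 2 were downregulated in CD VEH, Kcnj5 of the muscarinic channel (-0.45, edgeR adjusted p = 0.0139) and Kcnj12 of the background current (-0.36, adjusted p = 0.0299), 3 were upregulated by JZL184 in CD mice and 3 downregulated by JZL184 in WT mice, against 30.4, 33.9 and 29.4% of all tested genes called in the same comparisons. Of 4 tested other Abcc genes, Abcc5 was downregulated in CD VEH (-0.50, edgeR adjusted p = 0.00898), 0 passed for JZL184 in CD mice and 1 was upregulated by JZL184 in WT mice, shares near or below those of all tested genes. Of the nerve and glia markers, 2 were tested and 0 passed.

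**Figure D5:**
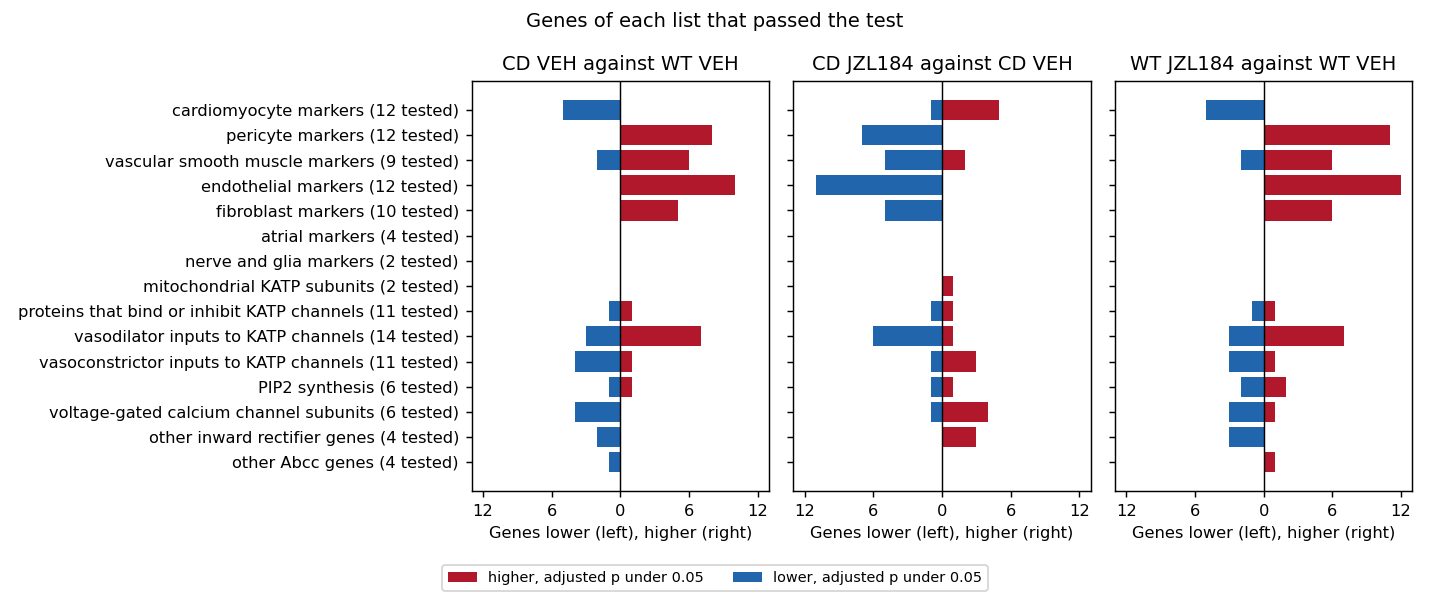
Number of genes (x axis) of each list (y axis, with the number tested) that were lower (left of 0) or higher (right of 0) at an edgeR adjusted p under 0.05, in CD VEH against WT VEH, CD JZL184 against CD VEH and WT JZL184 against WT VEH. Of 12 pericyte markers 8 were called higher in CD VEH, 11 higher in WT JZL184 and 7 lower in CD JZL184, of 12 endothelial markers 10, 12 and 11, and of 6 calcium channel subunits 4 were called lower in CD VEH against WT VEH and 4 higher in CD JZL184 against CD VEH.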

How the data were processed

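Heart RNA of 11 mice in 4 groups was sequenced by the authors on a HiSeq3000. Per the paper's methods, they quantified reads with Salmon 0.7.2 on Ensembl release 85 transcripts (GRCm38) and summed them per gene with tximport 1.2.0. The authors deposited 1 table of estimated counts, not normalized. After rounding, they were tested with edgeR 4.0.16 (limma 3.58.1, R 4.3.3): TMM factors, quasi-likelihood test, 4 groups in 1 model and Benjamini-Hochberg adjustment over 11319 genes whose average log2 CPM reached 1. The common coefficient of biological variation was 9.13%. The script was tested on simulated data. Groups were assigned from titles, and columns carry no replicate number. Labels do not say more on independence than that samples are separate mice; with 2 or 3 per group, p-values measure the spread between them.

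Genes were named through GENCODE mouse release 21 (22315 of 22608 matched). Ratios used counts per transcript length and exact permutation over mice. Log2 values had a prior count of 2 for profiles. Totals and the floor of 3 counts cover counting error only. Alternatives were RLE and upper quartile factors, no mitochondrial genes, DESeq2 1.42.0, other filters, only the groups compared, offsets for length and GC content, a robust fit, the column letter as a block and each mouse left out. The subunits and all gene lists were chosen with earlier results of these data known. Named genes were the 4 subunits, the list members with the smallest p in CD VEH against WT VEH (up to 3 per list), the 5 most alike genes (1 of them is not reported here) and 2 neighbours per side; Myl2, Tnni3, Synpo2, Prkaca, Prkacb, Prkar1a, Myl7, Stard10 and Nppa were named in addition, after their values were seen.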

Additional observations from a re-analysis of the deposited data

Results flagged for a closer look

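The effect of JZL184 differed between genotypes for all 4 subunits by the interaction test of edgeR: -1.15 for Kcnj8, 0.59 for Abcc9, 0.68 for Kcnj11 and 0.69 for Abcc8 (log2, effect in CD minus effect in WT). The log2 ratio of Kcnj8 to Kcnj11 differed by -1.83 and that of Kcnj8 to Abcc9 by -1.74 (exact permutation over mice). In this series 51.5% of tested genes passed the same interaction. The treatment labels, on which it rests, were not checked on any gene. Groups of 2 and 3 mice are too small for a test of outlying samples.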

How the results depend on the processing

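The columns carry no replicate number of the labels, only a letter whose meaning is not given in the sources used here. Of 8 pairs of mice with the same letter in different groups, 1 had deviations from the group means that correlated over 0.1 (median r -0.029; 11 of 37 pairs with different letters), so the letters were not taken to pair mice. With the letter as a replicate block, added after seeing the data, DEGs numbered 2401 for genotype under vehicle, 3912 in CD JZL184 against CD VEH, 599 in WT JZL184 against WT VEH, 1186 in CD JZL184 against WT JZL184, 30 in CD JZL184 against WT VEH and 4553 in the interaction. Under this block Kcnj8 in CD JZL184 against WT JZL184 (-0.34) and Kcnj11 in WT JZL184 against WT VEH (-0.27) no longer passed, Abcc9 in CD JZL184 against WT JZL184 turned to -0.013 (not passing), and no other subunit call changed. Upregulated pericyte markers numbered 5 in CD VEH and 5 in WT JZL184, downregulated cardiomyocyte markers 2 and 0, and in WT JZL184 upregulated fibroblast markers 2 and vasodilator inputs 4. Of the 22 other alternatives (21 for the interaction), 0 changed the direction or call of Kcnj8 in any comparison. With an offset for gene length, Abcc9 in CD JZL184 against CD VEH was 0.19 and no longer passed, and with the longest transcript as length, added after seeing the data, it was 0.20 (edgeR adjusted p = 0.102). Abcc9 in CD JZL184 against WT JZL184 turned to -0.053 with the former offset and -0.052 with the latter (not passing). Abcc9 in WT JZL184 against WT VEH passed with DESeq2 (-0.25). Kcnj11 in CD VEH against WT VEH passed with DESeq2 (-0.22), the offset for gene length (-0.35), the longest transcript length (-0.25) and GC content (-0.29). Kcnj11 in WT JZL184 against WT VEH was -0.29 and did not pass with only the groups compared. With each mouse left out, log2 fold-changes ranged from 0.27 to 0.43 for Abcc9 in CD JZL184 against CD VEH, from -0.31 to -0.19 for Abcc9 in WT JZL184 against WT VEH, from -0.012 to 0.11 for Abcc9 in CD JZL184 against WT JZL184, from -0.29 to -0.15 for Kcnj11 in CD VEH against WT VEH, from -0.35 to -0.27 for Kcnj11 in WT JZL184 against WT VEH and from -0.37 to -0.27 for Abcc8 in CD VEH against WT VEH. The log2 ratio of Kcnj8 to Kcnj11 ranged from -0.016 to 0.12 in CD JZL184 against WT VEH and from -1.94 to -1.71 in the interaction. That of Kcnj8 to Abcc9 ranged from -1.88 to -1.58 in the interaction, and that of Kcnj11 to Abcc9 from -0.0039 to 0.052 in CD JZL184 against CD VEH. The cause of these changes was not tested, but a WT VEH mouse left out leaves a group of 1, assumed to vary like the others. Over all alternatives the number of DEGs ranged from 386 to 4198 in CD VEH against WT VEH, from 2037 to 4687 in CD JZL184 against CD VEH, from 558 to 4484 in WT JZL184 against WT VEH and from 12 to 104 (the latter with DESeq2, and 88 with only the groups compared, against 21) in CD JZL184 against WT VEH. Downregulated cardiomyocyte markers in CD VEH numbered 5, and 8 with DESeq2, 2 without the filter and 3 with upper quartile factors, the filter of 10 counts or the longest length. In WT JZL184 they numbered 5, and 2 with only the groups compared. Upregulated fibroblast markers in CD VEH numbered 5, and 3 with the longest length. No subunit had 0 counts, so the pseudocounts for the ratios were not run. Of the other alternatives for the subunits and their ratios, 821 gave the same direction and side of the threshold.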
